A study of Cichorium intybus with 5 samples.

Results

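The response of embryogenic chicory (Cichorium intybus) leaf explants to 4 days of somatic embryogenesis (SE) induction was measured on cDNA microarrays as the ratio of K59 d4 to K59 d0. The members are all probes with a log2 ratio in this comparison, which were 867 of the 2112 probes of the deposited table (41.1%). K59 is a responsive genotype that forms somatic embryos from single leaf cells, whereas C15, obtained by selfing K59, does not. Explants were cut from 2-month-old in vitro plantlets, 12 plants per replica, and were either taken at once (d0) or cultured for 4 days in the dark at 35°C with shaking in SE induction medium without Yariv reagent (d4). The same comparison in C15 (C15 d4 vs. C15 d0) is given beside K59 for part of the genes. Genes printed without a C15 value can differ between the genotypes as well. K59 explants cultured 4 days with 250 µM β-D-glucosyl Yariv reagent (Y+), which binds arabinogalactan-proteins, vs. 4 days without it (Y-) formed a further comparison. Its C15 counterpart is given for a few genes only. Each genotype is a single line, and the RNA of whole explants was pooled. In such samples, fewer cells of a type and less RNA per cell cannot be told apart, and a change in leaf mesophyll cells cannot be separated from a change in the few cells that reactivate.

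In SE a differentiated somatic cell loses its specialised state, re-enters the cell cycle and gives rise to an embryo without fertilization. In a leaf this means that a mesophyll cell, whose RNA is rich in transcripts for photosynthesis, rebuilds its nucleus, plastids and wall before it divides. Protein turnover by the ubiquitin-proteasome pathway, DNA replication factors, wall-loosening enzymes and wall glycoproteins such as arabinogalactan-proteins are among the systems known to act when plant cells start to divide.

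Each probe is a PCR fragment of a cDNA clone, named by its plate and well, and its value is the log2 of the d4 signal over the d0 signal, so that 1 stands for a 2-fold higher and -1 for a 2-fold lower signal at d4. With the log2 cutoff of the methods, a probe at or above 1 is called up-regulated and a probe at or below -1 down-regulated. The study applied this cutoff together with a statistical selection of genes, which could not be repeated here. The calls below use the cutoff alone and are not the study's gene lists. The methods state 3 biological replicates and 6 dye-swapped hybridizations, but the table holds 1 value per probe. There is therefore no replicate check, no test was made, and no value below can be set against experimental error. The clones on the array had been enriched by subtractive hybridization and several can come from the same gene, so that shares of probes are not shares of the genes of the genome. The direction of the ratio follows the sample labels. The K59 d0 vs. C15 d0 comparison shares the K59 d0 explants, and its direction rests on a label alone, so no result was drawn from it. Its log2 ratios were not all near 0 and reached 2.62 for clone E005A4 and -2.16 for clone E010F2. Each genotype is set against its own d0. A K59 minus C15 difference therefore holds the d0 levels as well as the d4 levels, and their parts were not tested.

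The K59 response was broad, with 353 of 867 probes (40.7%) past the threshold, 150 up-regulated (17.3%) and 203 down-regulated (23.4%). The decreases were the deeper ones. Down-regulated probes had a median of -2.0 and reached -5.50, and 102 of them lay at or below -2. Up-regulated probes had a median of 1.40, with quartiles of 1.12 and 1.78, and 23 of them lay at or above 2. At or beyond 3 in size there were 3 increases and 50 decreases. The threshold does not fall in a gap of the distribution, since 29 probes had values from 0.90 to 0.99 and 29 from 1 to under 1.1, while 16 had values from -0.99 to -0.90 and 9 from -1 to above -1.1. The median over all members was 0.10, with 461 probes above 0 and 404 below.

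**Figure D1:**
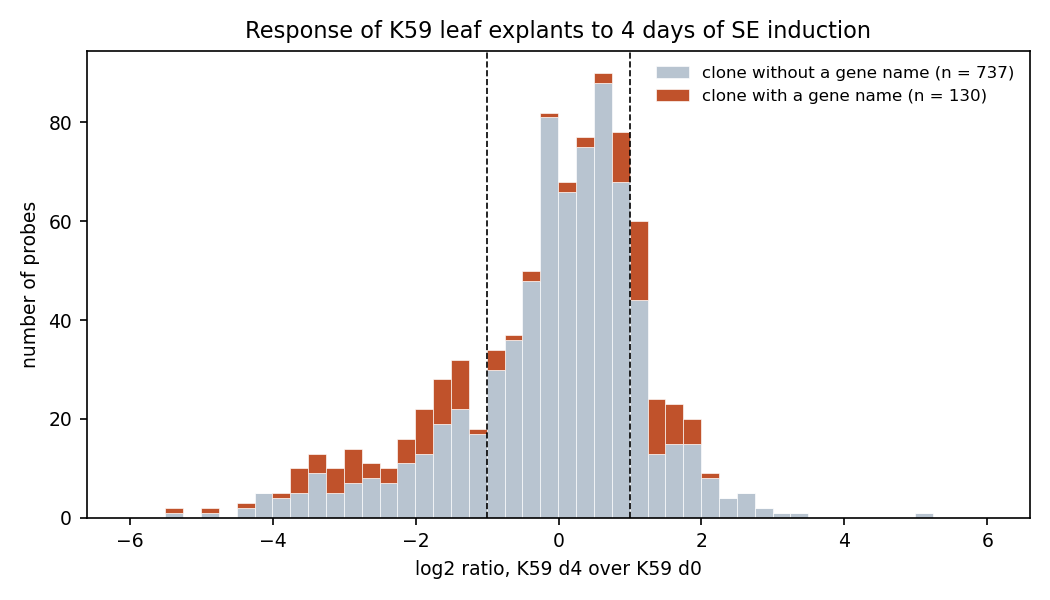
Number of probes (y axis) by log2 ratio of K59 d4 over K59 d0 (x axis), in bins of 0.25 and stacked by whether the clone has a gene name. Dashed lines mark log2 ratios of -1 and 1; the lower tail reaches -5.50, while a single probe lies above 4.

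The study's annotation gives a gene name to 135 clones, of which 130 have a K59 value. These names were given to genes that the study selected on these same samples, so that the share of named clones past the threshold was fixed in part by that choice and is no independent evidence. Among the named clones 41 were up-regulated, 65 down-regulated and 24 within the threshold. Among the 737 clones without a name 109 were up-regulated (14.8%) and 138 down-regulated (18.7%). The named clones were sorted into 17 lists by the role of the gene. In the following, the counts per list describe the named clones and can be read against 17.3% up and 23.4% down over all members, but nothing was tested from them.

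**Figure D2:**
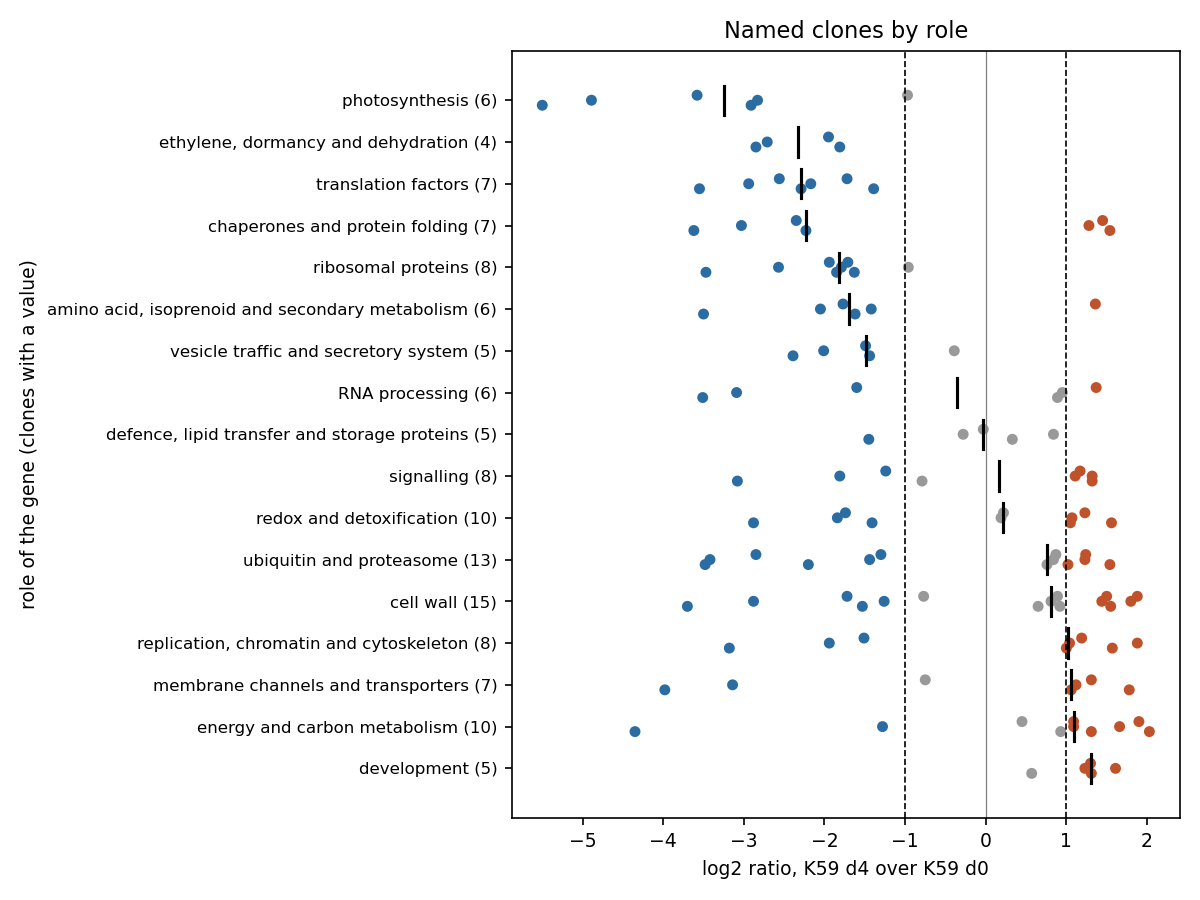
Log2 ratio of K59 d4 over K59 d0 (x axis) of the 130 named clones, by role (y axis, number of clones in brackets). Points are single clones, coloured past the threshold of 1 or -1 (dashed lines), and vertical bars are list medians, which run from -3.25 for photosynthesis to 1.30 for development.

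Photosynthesis genes had the lowest median of the 17 lists, and the lowest named values were those of RuBisCO. RuBisCO small subunit, part of the enzyme that fixes CO2, had a log2 ratio of -5.50 for clone N104E4, a 45.3-fold lower signal at d4 and the lowest value of all members. A clone of its precursor, E007F11, had -4.89. Photosystem I chain II (E008D3) had -3.58, CP12 (E003D4), a small regulator of Calvin cycle enzymes, -2.91, and a chlorophyll a/b-binding protein of the light-harvesting antenna (E008F9) -2.83. The photosystem I reaction center subunit (E008D9) lay at -0.97, just within the threshold. In all, 5 of 6 genes were down-regulated with a list median of -3.25, and their C15 values were less negative for 6 of 6, with a C15 median of -1.92. A K59 value further from 0 than that of C15 was also found for 185 of all 188 down-regulated probes with a C15 value. The leaf identity of the explants could not be checked by level, because the values are ratios, but these are transcripts of green leaf cells.

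The genes of protein synthesis, which build and serve the ribosome, were low throughout. Of 8 ribosomal proteins, 7 were down-regulated and none was up-regulated, from -3.47 for the 60S acidic protein P0 (E005A8), part of the stalk that recruits elongation factors, to -0.96 for 40S protein S19 (E012A3). Ribosomal protein S29 (N103G2) had -2.57, S11 (E007A9) -1.94, S2 (E015B3) -1.85, L10 (E001G12) -1.79, a 60S acidic protein (N102F1) -1.71 and S17 (N104E11) -1.63. The list median was -1.82, and 5 of the 8 values lay between -1.94 and -1.63. All 7 translation factors were down-regulated, with a median of -2.29. Initiation factor B04 (E014G12) had -3.55 and the nascent chain-binding alpha NAC protein (A025F3) -2.94. TCTP (E017A2) had -2.56, elongation factor 1 alpha (E001D9), which brings aminoacyl-tRNA to the ribosome, -2.29, initiation factor 5A (N101B4) -2.17, elongation factor 2 (E014E12), which drives translocation, -1.72, and poly(A)-binding protein (E006G5) -1.39.

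The genotypes stood further apart for the ribosomal proteins than for the translation factors. In C15, where 9.84% of probes passed the threshold (1.54% up and 8.3% down), P0 (-1.38) alone did so among the ribosomal proteins, and L10 had a value above 0 (0.21), so that the C15 median was -0.48. For the translation factors 6 of 7 passed it in C15 as well, with a C15 median of -1.18, the exception being alpha NAC (-0.51). The K59 value was below the C15 value for 8 of 8 ribosomal proteins, with a median difference of -1.49, and for 7 of 7 translation factors, with -1.05. This difference has no replicate error and was not tested. Over all down-regulated probes with a C15 value, K59 was the further from 0 in 185 of 188, so that these counts are not particular to the 2 lists.

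Chaperones lay on both sides of the threshold. The HSP70 proteins, which hold unfolded chains, were down-regulated, with -3.62 for a heat shock protein cognate 70 (E016H11), -3.03 for a dnaK-type chaperone (E004A3) and -2.23 for a heat shock protein 70 (E012D5). These 3 were past the threshold in C15 as well, between -2.77 and -1.60. A cyclophilin (E016D9) had -2.35. In contrast, a cpn60 chaperonin (E007B3) and a further chaperonin (E017B4), both ring-shaped folding machines, were up-regulated at 1.28 and 1.45, as was a peptidylprolyl isomerase (E009E8) at 1.54, the enzyme activity that cyclophilins also have. Of the 7 genes, 4 were thus down-regulated and 3 up-regulated. Relative to their plate medians the chaperonins lay under the threshold at 0.84 and 0.71, which left 1 up-regulated gene. The culture was kept at 35°C at d4 and the d0 explants were not cultured, so that temperature, darkness, medium and time cannot be told apart in this comparison.

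A similar division was seen in the ubiquitin-proteasome pathway, which tags proteins with ubiquitin through E1, E2 and E3 enzymes and degrades them in the 26S proteasome. The ubiquitin precursors and E2 enzymes were all down-regulated, a ubiquitin-conjugating enzyme E2 (E010G5) at -3.48, UBC9 (E015H1) at -3.42 and the polyubiquitin clones N102D1 and E017D10 at -2.85 and -2.20. These 4 genes were also past the threshold in C15, between -1.70 and -1.15. Of 3 proteasome subunits, the AAA ATPases of the regulatory particle RPT6 (E001E6) and RPT5a (E017E4), which unfold substrates, were up-regulated at 1.23 and 1.24, and the 20S alpha subunit B (N102E10), part of the core gate, lay at 0.84. Their C15 values were between 0.08 and 0.33.

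The substrate-recruiting proteins of the same pathway lay in between. A RING/C3HC4/PHD zinc finger protein (E017D8) had 1.54 and a C3HC4-type RING finger protein (E017B3) 1.02, whereas a kelch repeat F-box protein (E017H4) and a further RING finger protein (E014H11) lay within the threshold at 0.87 and 0.76. A RING zinc finger protein (E012B12) was down-regulated at -1.30. The E3 ubiquitin ligase (N104F8) had -1.44 in K59 and 1.01 in C15, which put it past the threshold in opposite directions. Over the 13 genes of the pathway, 4 were up-regulated, 6 down-regulated and 3 within the threshold. Relative to plate medians 3 were up-regulated and 5 down-regulated, but the up-regulated genes were mostly others. RPT6 (1.62) stayed past the threshold, and the proteasome alpha subunit B (N102E10, 1.26) and the RING finger protein E014H11 (2.00) came past it. RPT5a (0.50), E017D8 (0.80) and E017B3 (0.28) then lay under it, as did the E3 ubiquitin ligase (-0.03).

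**Figure D3:**
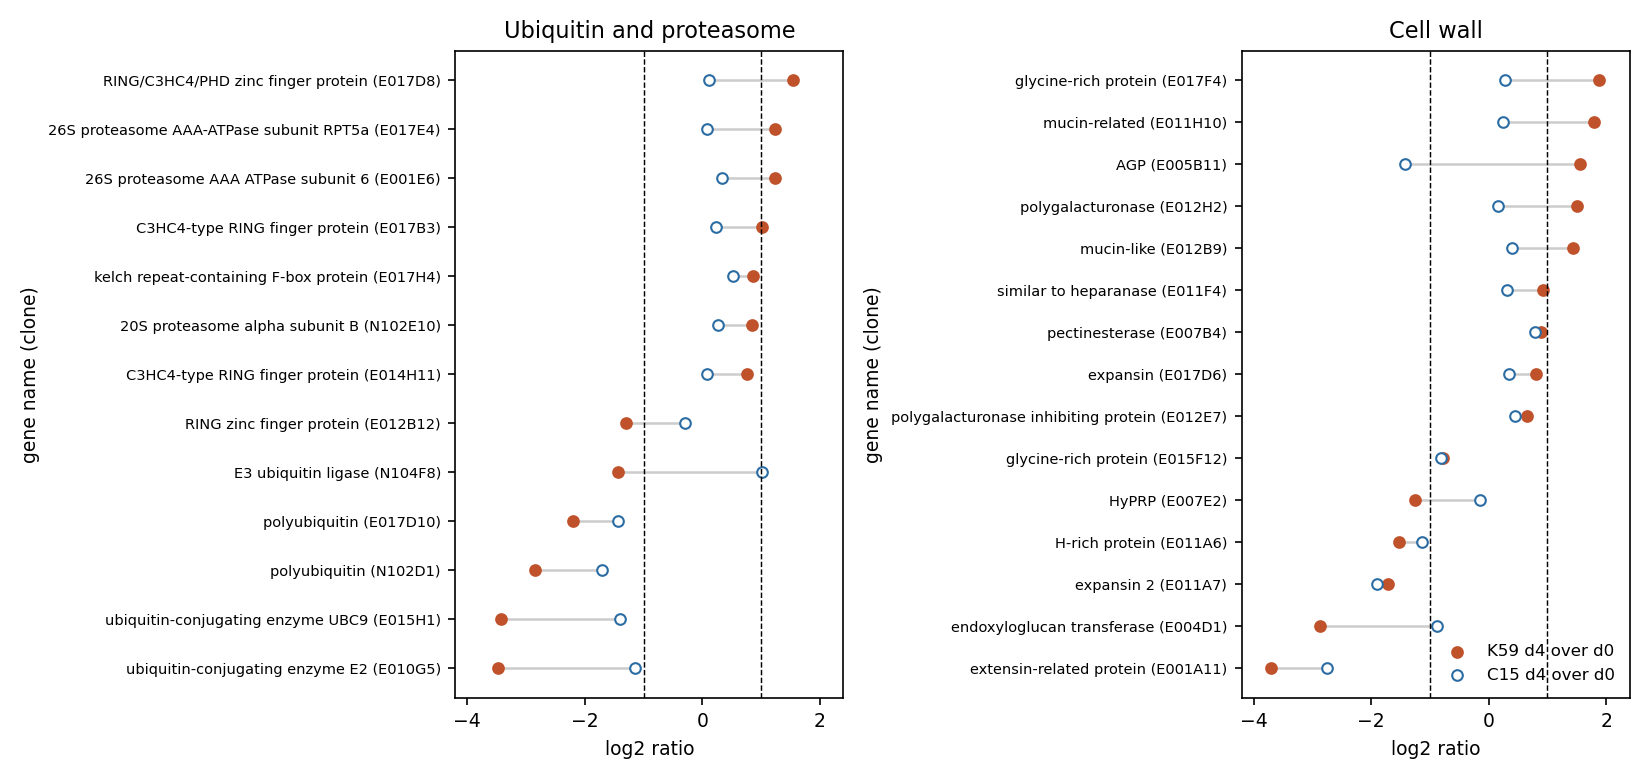
Log2 ratio of d4 over d0 (x axis) in K59 (filled) and C15 (open) for the named genes (y axis) of the ubiquitin-proteasome pathway and of the cell wall, ordered by the K59 value. Dashed lines mark -1 and 1; the AGP gene (1.55 in K59, -1.43 in C15) and the E3 ubiquitin ligase (-1.44 and 1.01) lie on opposite sides in the genotypes.

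The cell wall list was the longest, with 15 of its 16 genes measured, and held as many up-regulated as down-regulated genes (5 each). The up-regulated genes were a glycine-rich protein (E017F4, 1.88), a mucin-related protein (E011H10, 1.80), the arabinogalactan-protein AGP (E005B11, 1.55), a polygalacturonase (E012H2, 1.5), which cleaves pectin, and a mucin-like protein (E012B9, 1.44). All 5 had C15 values below 0.5, and AGP, a wall proteoglycan, was the only one of them with a C15 value below 0 (-1.43). A heparanase-like gene (E011F4), a pectinesterase (E007B4), an expansin (E017D6) and the polygalacturonase inhibiting protein (E012E7) lay within the threshold at 0.92, 0.89, 0.81 and 0.65.

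The down-regulated wall genes included structural and wall-loosening proteins. The extensin-related protein (E001A11) had -3.70 and the endoxyloglucan transferase (E004D1), which cuts and rejoins xyloglucan, -2.88. Expansin 2 (E011A7) followed with -1.72, an H-rich protein (E011A6) with -1.53 and the hybrid proline-rich protein HyPRP (E007E2) with -1.26. A further glycine-rich protein (E015F12) had -0.77. Expansin 2 was an exception to the deeper K59 response, as it was slightly lower in C15 (-1.91). The extensin-related protein (-2.75) and the H-rich protein (-1.13) were past the threshold in C15 as well. No value was present in K59 for the extracellular dermal glycoprotein precursor (E010H12).

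Genes of replication, chromatin and the cytoskeleton included 5 up-regulated and 3 down-regulated of 8. Up-regulated were salt tolerance protein 5 (E016C9, 1.88), a topoisomerase annotated as meiosis specific (E012G3, 1.57), the DNA replication licensing factor MCM3 (E016H3, 1.19), a subunit of the helicase that opens replication origins, kinesin 10 (E016B4, 1.04), a microtubule motor, and the histone acetyltransferase HAT B (E013B9, 1.0). The C15 values of these 5 were between 0.23 and 0.72. The name of salt tolerance protein 5 does not itself state a role of this kind. Down-regulated were histone H2A (A025C4, -3.18), profilin (E008B12, -1.94), which binds actin monomers, and beta tubulin (E011C12, -1.51). Subtracting the overall or the plate medians left 3 up-regulated, MCM3 (0.88) and kinesin 10 (0.73) lying under the threshold relative to their plates. In C15 the 3 genes down-regulated in K59 had -1.84 (histone H2A), -0.70 (profilin) and -0.64 (beta tubulin). The replication gene MCM3 and the core histone H2A thus lay on opposite sides of 0 in the same explants, in C15 as in K59.

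RNA processing genes showed the same kind of division. The spliceosomal protein SmD1 (E004C10) had -3.51, RNA binding protein A (E010F6) -3.09 and a CCR4-associated factor (E005A3), of the complex that shortens poly(A) tails, -1.60. SmD1 (-1.28) and RNA binding protein A (-2.06) were past the threshold in C15 as well. An RNA helicase (N102G9) was up-regulated at 1.37, while a DEAH-box RNA helicase (E006F5) and a pentatricopeptide repeat protein (E017C1), of a family that acts on organelle transcripts, lay within the threshold at 0.95 and 0.89.

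Most of the genes named for development lay above the threshold, with 4 of 5 up-regulated, none down-regulated and a median of 1.30. They were ZOG1 (E011A2, 1.61), named for an enzyme that glucosylates the cytokinin zeatin, EMB1374 (E012B2, 1.31), whose name comes from Arabidopsis embryo-defective genes, a nodule inception protein (E006F7, 1.30) and NAM 1 (E002E2, 1.23), of the NAC family of transcription factors. The LBD41 homologue (E012F12) lay at 0.57. In C15 none of the 5 passed the threshold, and their values were between 0.04 and 0.40. After subtraction of plate medians ZOG1 alone stayed past the threshold in K59.

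Energy and carbon metabolism had 6 up-regulated and 2 down-regulated genes of 10. L-lactate dehydrogenase (E017E2), an enzyme of fermentation, had 2.03, the highest value among all named clones, and it was also past the threshold in C15 (1.14). ATP citrate lyase (N104B10), which supplies cytosolic acetyl-CoA, had 1.90, prohibitin (E017G10), a scaffold of the inner mitochondrial membrane, 1.66, and acyl-CoA oxidase (E009B5), of peroxisomal fatty acid oxidation, 1.31. Ubiquinol-cytochrome C reductase (A025A12) and a malate dehydrogenase (E006E2) both had 1.09, and NADH-cytochrome b5 reductase (E006G1) and a GAPDH (E002A3) lay within the threshold at 0.93 and 0.45. A further malate dehydrogenase clone (N101C1) was down-regulated at -4.35, 20.4-fold lower at d4, and cytosolic GAPDH (E005C9) at -1.28, the latter within the threshold relative to its plate (-0.94). Clone N101C1 was past the threshold in C15 as well, at -2.03. Subtracting the overall or the plate medians left 4 up-regulated genes in this list.

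Of the 7 membrane channels and transporters, 4 were up-regulated and 2 down-regulated. The aquaporins of the MIP family, which carry water, were down-regulated at -3.98 (E001G4) and -3.14 (E014D12), and the sucrose transporter SUT1 (E001F2) lay within the threshold at -0.75, less negative than in C15 (-1.85). The aquaporins also passed the threshold in C15, at -2.46 and -1.91. A voltage-dependent anion channel of the outer mitochondrial membrane (E010D10) was up-regulated at 1.78 in K59 and 1.16 in C15. ZIP4 (E016G6), of a family of metal transporters, had 1.31, amino acid permease 6 (E002B7) 1.12 and a glycerol-3-phosphate transporter (E006E10) 1.06. The last 2 of these lay under the threshold relative to their plate medians, at 0.84 and 0.58.

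In the signalling list 4 of 8 measured genes were up-regulated and 3 down-regulated. A gene annotated as nuclear receptor (E002E12) and an FH protein (E012E4) had 1.32 each, AR781 (N101H11) 1.17, and remorin (N104B1), a plasma membrane protein, 1.11. Calmodulin (E004F10), the main calcium sensor, had -3.08, a receptor-like kinase (N103A5) -1.81 and a protein kinase C receptor (E002A1) -1.24, while a 14-3-3 protein (E010A10) lay at -0.79. The receptor-like kinase had a C15 value of 0.16, whereas the protein kinase C receptor (-1.09) and calmodulin (-1.18) were past the threshold in C15 too. The protein kinase family protein (E001C5) had no K59 value.

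Of 10 redox genes, 4 were up-regulated and 4 down-regulated as deposited, with 2 up-regulated after subtraction of the median, and 1 up-regulated and 2 down-regulated after subtraction of plate medians. The up-regulated ones were isoflavone reductase (E011H3, 1.56), polyphenol oxidase (E017A6, 1.23), a quinone reductase (E006H4, 1.07) and stromal ascorbate peroxidase (E006G11, 1.05), which removes hydrogen peroxide in the chloroplast. Metallothionein 1 (N104E6), a metal-binding protein, had -2.88, an H-type thioredoxin (E004A9) -1.84, a peroxidase (E013D3) -1.74 and a glutathione S-transferase (N104C2) -1.41. A quinone reductase (E017C3) and an ATP24a-like peroxidase (E002F2) lay close to 0, at 0.22 and 0.19. Metallothionein 1 alone of the 10 genes passed the threshold in C15, at -1.29.

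The vesicle traffic list had no up-regulated gene, and 4 of 5 were down-regulated. The small GTPase ARF1 (E011E1), which starts coat assembly, had -2.39, an endoplasmic reticulum protein (A025A9) -2.01, endomembrane protein 70 (E004H7) -1.49 and the coat subunit beta-COP (E009D1) -1.44. The ARF GTPase-activating protein AGD6 homologue (E010G4) lay at -0.39. In C15 endomembrane protein 70 and beta-COP were near 0, at -0.10 and -0.03, while ARF1 (-1.07) and the endoplasmic reticulum protein (-1.43) passed the threshold.

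Genes tied to ethylene, dormancy and dehydration were all down-regulated (4 of 4). The ethylene-forming enzyme ACC oxidase (N104E3) had -2.71 and S-adenosylmethionine synthetase (E008B1), which makes the methyl donor from which ethylene is derived, -1.95. A dormancy-associated protein (A025D6) had -2.85 and the dehydration-induced ERD15 (N101H8) -1.81. In C15 S-adenosylmethionine synthetase alone was within the threshold, at -0.92.

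Of 6 genes for amino acid, isoprenoid and secondary metabolism, 5 were down-regulated. A dihydroflavonol reductase (E001H2), of the anthocyanin pathway, had -3.50, HMG-CoA reductase (E011F11), an enzyme of the mevalonate pathway, -2.05, and PAL (E003G7), the entry enzyme of phenylpropanoid synthesis, -1.77. Cyanate lyase (E005H8) had -1.62 and myo-inositol-1-phosphate synthase (E017B10) -1.42. ILV5 (E016F3), of branched-chain amino acid synthesis, was the exception at 1.36, with a C15 value of -0.37. Among the 6 genes dihydroflavonol reductase alone passed the threshold in C15, at -2.25.

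The defence, lipid transfer and storage proteins had 1 of 5 measured genes past the threshold in K59, the smallest share of the 17 lists. The lipid transfer protein SDI-9 (E009A6) had -1.45. The others were DEA1 (E002A7) at -0.28, a serine-type endopeptidase inhibitor (E017B9) at -0.03, VSP (N101E4) at 0.33 and a wound-responsive protein (E017H3) at 0.84. Snakin 2 (N104F11), the defensin SD2 (N102D12) and a clone similar to ZePI2 (N101E12) had no K59 value, and their C15 values of 1.93, 1.40 and 0.90 compare with 1.54% of probes up-regulated in that genotype. For this list the K59 counts therefore leave out the genes with the highest C15 values.

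Some clones share a gene name. The polyubiquitin clones differed by 0.65 on the log2 scale in K59, the aquaporin clones by 0.84, the quinone reductase clones by 0.85 and the C3HC4-type RING clones by 0.26. The malate dehydrogenase clones differed by 5.44 in K59 and by 2.29 in C15, and the glycine-rich protein clones by 2.65 in K59 and by 1.09 in C15, with K59 values on opposite sides of 0. Whether clones of a name are copies of the same gene is not given by the annotation, and fragments of related genes can share hybridization signal, which was not tested.

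The highest values of K59 belonged to clones without a gene name. Clone E011D8 had 5.22, 37.3-fold higher at d4, followed by E008D1 with 3.25, E016C1 with 3.03, E006A11 with 2.77, E017B7 with 2.76, E007E3 with 2.68, E002A5 with 2.65, E016A3 with 2.61, E007G5 with 2.52 and E011E3 with 2.50. E011D8 thus stood apart from the next clone. None of these 10 has a name, and the 7 with a C15 value stayed between 0.18 and 0.75 there. At the lower end, 3 of the 10 lowest clones are named, the RuBisCO small subunit clones and the malate dehydrogenase N101C1. The others were E010G3 (-5.45), N104F5 (-4.92), E009E7 (-4.50), N103E10 (-4.40), E005F10 (-4.16), N102G4 (-4.12) and E014A4 (-4.09). Their C15 values were between -3.69 and -1.87, so that the lowest K59 clones were past the threshold in C15 as well. The highest K59 clones with a C15 value were within the threshold there. The C15 values spread less upwards than downwards, with 1.54% of probes up-regulated and 8.3% down-regulated. Their upper quartile was 0.22, and most of these highest K59 clones with a C15 value lay above it.

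Over the 811 members with a C15 value this asymmetry was general. Of the 144 up-regulated probes with a C15 value, 125 had a C15 value above 0, but their C15 median was 0.26 and 27 reached 0.5. Of the 188 down-regulated probes with a C15 value, 172 were below 0 in C15, with a median of -0.94, and 127 lay at or below -0.5. The K59 value was the further from 0 in 144 of 144 up-regulated and in 185 of 188 down-regulated probes. Since the sets were chosen by their K59 values, a more extreme value in K59 than in C15 is in part built into these counts.

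Grouping by the C15 value instead gave the following picture. The 25 probes below -2 in C15 had a K59 median of -3.71 and were all down-regulated in K59, and the 67 probes from -2 to -1 had a median of -2.87, with 63 down-regulated. From -1 to -0.5 in C15 the K59 median was -1.05, and from -0.5 to 0 it was -0.25. The 371 probes from 0 to 0.5 in C15 spread from -1.87 to 5.22 in K59, with a median of 0.63, and 98 of them were up-regulated in K59. These probes near 0 in C15 supplied 98 of the 144 up-regulated members with a C15 value, but they were also 371 of all 811 probes. The 38 probes from 0.5 to 1 had a K59 median of 1.06, with 21 up-regulated and 2 down-regulated. The 10 at or above 1 had a median of 1.18, with 6 up-regulated and 3 down-regulated. The share up-regulated in K59 was thus higher above 0.5 in C15 than from 0 to 0.5.

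**Figure D4:**
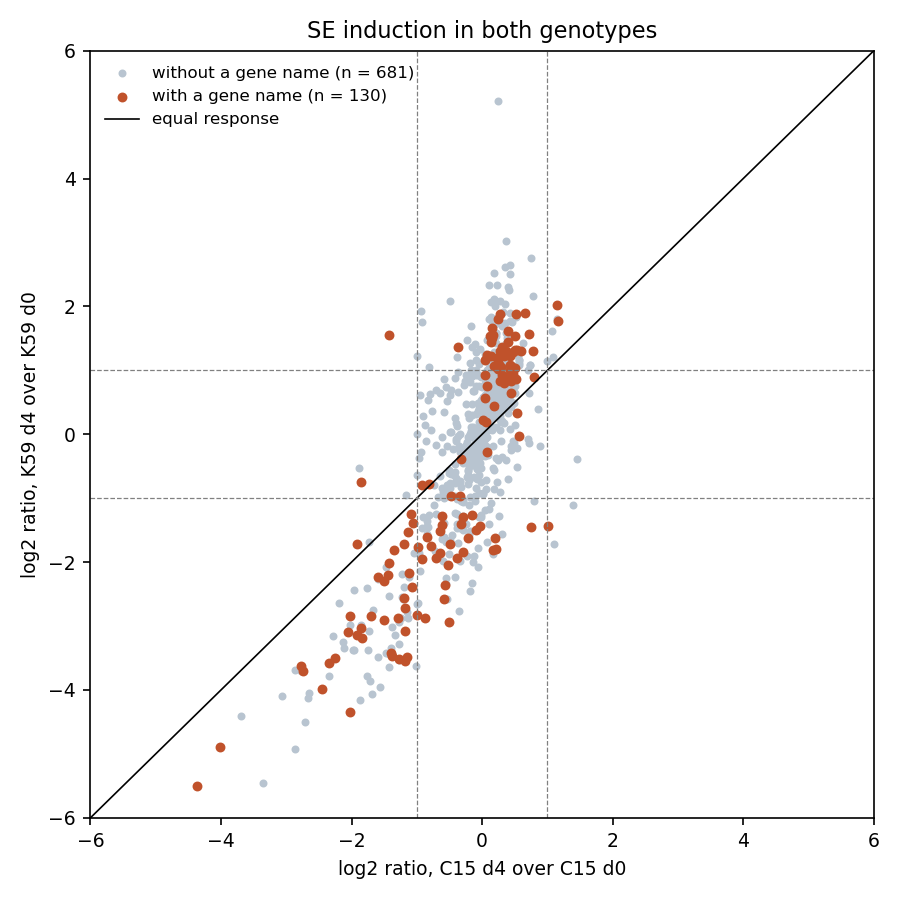
Log2 ratio of d4 over d0 in K59 (y axis) against C15 (x axis) for the 811 probes with both values, with named clones in colour. The solid line marks equal responses and dashed lines -1 and 1; probes below -2 in C15 have a K59 median of -3.71, and probes from 0 to 0.5 in C15 have K59 values from -1.87 to 5.22.

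A K59 value at least 1 above the C15 value was found for 111 probes (13.7%) and at least 1 below it for 138 (17%). The largest differences upwards were those of E011D8 (4.98), AGP (2.98), E010D7 (2.87), E007E8 (2.67) and E016C1 (2.66). E010D7 had 1.93 in K59 and -0.94 in C15, and E007E8 1.75 and -0.92, which gave them the same pattern as AGP with a C15 value just within the threshold. Downwards they were E012H9 (-2.81), N104E2 (-2.61), E009H4 (-2.51), the E3 ubiquitin ligase (-2.45) and alpha NAC (-2.43). These differences were not tested.

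The K59 Yariv comparison shares the induced explants (K59 d4, Y-) with K59 induction, on opposite sides of the ratio, so the values are given side by side only. In that comparison 2.58% of probes passed the threshold, 0.583% up and 2% down. Of the 41 named genes up-regulated by induction, 9 had a Y+ vs. Y- log2 ratio at or below -0.75, a cutoff chosen after the values were seen, which 4.91% of all probes of that comparison met. The study chose its named genes in part by their Yariv response, so that this count is no independent evidence. The 9 genes were AGP (1.55 after induction, -1.81 with the reagent), RPT6 (1.23, -1.29), amino acid permease 6 (1.12, -1.14), the RNA helicase N102G9 (1.37, -1.02), remorin (1.11, -0.95), the nuclear receptor (1.32, -0.93), ATP citrate lyase (1.90, -0.91), the mucin-like protein (1.44, -0.89) and the voltage-dependent anion channel (1.78, -0.75). L-lactate dehydrogenase, the highest named gene, had -0.14, and RPT5a, next to RPT6 in induction, had -0.20. In C15 the Y+ vs. Y- values of the 9 genes lay between -1.89 (RPT6) and -0.92 (the voltage-dependent anion channel). Their decrease with the reagent was therefore not particular to K59.

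The response also varied with the plate of the clone. All 22 plates held both up-regulated and down-regulated probes, but the number of members ranged from 21 to 82 of 96 wells and the plate median from -1.41 (N104) to 0.74 (E017). Plate E017 had 82 members, 23 up-regulated (28%) and 6 down-regulated (7.32%), and holds 17 named clones, among them RPT5a, prohibitin, L-lactate dehydrogenase and a chaperonin. Plate N104 had 29 members, 3 up-regulated and 15 down-regulated (51.7%), and plate E014 had 1 and 18 of 35. In C15 the plate medians were between -0.21 and 0.18. Relative to its own plate, the E3 ubiquitin ligase stood at -0.03, glutathione S-transferase at 0.00, ribosomal protein S17 at -0.22, elongation factor 2 at -0.48 and RPT5a at 0.50, all under the threshold. The plates differ in which clones they hold and in how many passed the authors' filters, and the part of the plate in the values was not tested.

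**Figure D5:**
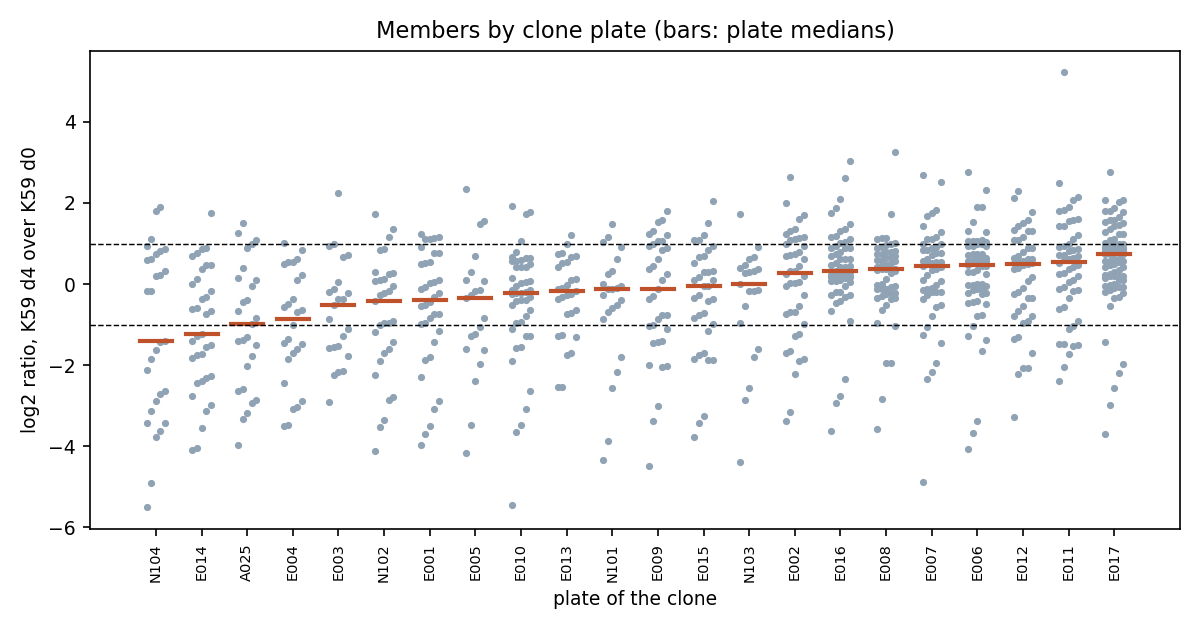
Log2 ratio of K59 d4 over K59 d0 (y axis) of the 867 members by clone plate (x axis), with plates ordered by their median (bars). Dashed lines mark -1 and 1; plate medians run from -1.41 for N104 to 0.74 for E017.

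Of the 2112 probes, 1245 have no K59 induction value. Of these, 358 have a C15 induction value, with a C15 median of 0.11 and a range from -1.56 to 2.59, so that probes without a K59 value were not all unresponsive in C15. Conversely, 56 members have no C15 value, and their K59 values ran from -2.18 to 3.25 with a median of -0.29. The filters on low signal and on opposite dye-swap behaviour were applied by the authors, and which of them removed a probe is not given in the sources used here.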

How the data were processed

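The deposited table holds log2 ratios of channel 1 (Cy5) over channel 2 (Cy3), with d4 in channel 1 per the labels. Per the methods, the authors read spots with GenePix Pro, discarded flawed, saturated and dim ones, subtracted local background, and corrected every slide by lowess and then by print-tip medians. Probes whose dye swaps disagreed were dropped. The way in which hybridizations were merged into a single value is not stated, and their small number limits a precision that is unknown here. The authors' FDR and SAM steps could not be repeated without separate hybridizations.

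Probes with a value of 1 or more, or -1 or less, were counted, and values were kept as deposited (K59 median 0.10). Gene names come from the study's annotation, matched by clone, and its measurement columns were not used. The genes named are all 135 annotated clones, the 10 highest and 10 lowest probes, and the 5 largest differences from C15 in each direction. Members and lists were chosen with earlier results of these data known. The counting was tested on simulated data. Python 3.11.15, numpy 2.4.6, pandas 2.3.3 and matplotlib 3.10.9 were used. Alternatives were other thresholds, median and plate centring, and subsets of probes.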

Additional observations from a re-analysis of the deposited data

Results flagged for a closer look

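For 4 probes the genotypes passed the threshold on opposite sides of 0 after induction. The K59 minus C15 difference was 2.98 for AGP (clone E005B11), -2.45 for the E3 ubiquitin ligase (N104F8), -2.51 for clone E009H4 and -2.81 for clone E012H9. With 1 value per genotype the difference was not tested. E009H4 had -1.11 in K59 and 1.40 in C15, and E012H9 had -1.71 and 1.1. Relative to its plate medians the E3 ubiquitin ligase had -0.03 in K59 and 1.06 in C15, and E012H9 had -2.20 and 0.95, so that neither was then past the threshold in both genotypes.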

How the results depend on the processing

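A threshold of 1.5 left 66 up-regulated probes, 43 with a K59 value above that of C15 and 70 below it by that amount, and a threshold of 2 left 23 up-regulated and 102 down-regulated probes, with 14 above and 31 below. Among probes with all 5 values the numbers were 77 up, 120 down, 45 above and 87 below, by construction of fewer probes. The other alternatives kept these 4 counts within 1.5 times. Subtracting the median (0.10) took 8 of 130 named values under the threshold, all from 1 to under 1.1, and brought 2 past it. Plate medians took 26 under it and brought 4 past it, among the 26 NAM 1, EMB1374, the nodule inception protein, MCM3, prohibitin and both chaperonins. No named value past the threshold changed sign under either. Plate centring moved 7 of the 34 list counts by over 1.5 times: up-regulated genes went from 4 to 1 for development, 3 to 1 for chaperones, 4 to 1 for redox, 4 to 2 for transporters and 5 to 3 for replication, and down-regulated genes from 4 to 2 for redox and 2 to 1 for energy. Median subtraction moved 2 (replication, 3 up, and redox, 2 up). No paired analysis was possible because a comparison has a single value per probe and no replicate number, and no replicate could be left out for the same reason.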
